A study of Homo sapiens with 6 samples.

Results

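The genes described here are the ribosomal protein pseudogenes that gave reads in U87MG, an established human glioblastoma cell line. A member was any gene annotated as a pseudogene whose symbol starts with RPL, RPS, RPLP or RPSA and ends in P and a number, with a mean raw count of at least 10 over all 6 libraries. Of 65988 gene identifiers counted, 1598 were ribosomal protein pseudogenes. Of these 1598, 713 had no read in any library, 721 had a mean count above 0 and under 10, and 164 were members. The members were chosen by their annotation and their mean raw count over control and RSL3 libraries together. Their levels over all libraries are therefore a description. The rule does not use the difference between treated and control cells. It was set with earlier results of these data known, however, and it names RPLP0P2 as an example. Just inside the limit were RPL21P11, RPL21P98 and RPL32P33, each with a mean of 10.0 reads. Just outside it were RPL12P38 with 9.83 reads, and RPL23AP97 and RPL37AP8 with 9.67 reads each.

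The cells were wild type and received either vehicle (control, 3 libraries) or RSL3 at 2 µM (3 libraries), and the study describes a treatment of 24 h. RSL3 is an inhibitor of GPX4, the enzyme that detoxifies lipid peroxides, and is used to trigger ferroptosis, an iron-dependent form of cell death. RNA was sequenced after poly(A) selection and reads were counted per gene without regard to strand, so a pseudogene and a gene on the other strand cannot be told apart where they overlap. Total counts per library were 27813462 to 43306335. Of the glial and glioma markers looked at, VIM, CD44, OLIG2, NES and GFAP were detected, while SOX2 and S100B were at 2.30 normalized counts or less in every library. The leukocyte marker PTPRC was also near 0, at up to 0.998 normalized counts, while EPCAM reached 19.4 and the neuronal gene SYP 109. The labels do not say whether the libraries came from separate cultures, so the p-values measure the spread between these libraries, which may be technical.

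Ribosomal proteins build the small and large subunits of the ribosome, and their messenger RNAs are among the most abundant in any growing cell. Messenger RNAs can be reverse transcribed and inserted back into the genome, which leaves processed pseudogenes, intronless copies that usually lack the parent's promoter and gather mutations. Ribosomal protein genes have left more such copies in the human genome than any other family, and a short read from the parent's messenger RNA may match a young copy equally well.

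Of the 164 members, 149 were annotated as processed pseudogenes, 12 as transcribed processed pseudogenes, 2 as transcribed unprocessed pseudogenes and 1 as an unprocessed pseudogene. They lay on 23 chromosomes and traced to 51 parent genes, the gene named by the symbol without its ending. RPSA, which encodes a small subunit protein also known as the laminin receptor precursor, had 14 members. RPL7A had 10 members and RPL21 had 9. Those 3 and RPL15, RPL17, RPL23A, RPL7, RPS2, RPS3A, RPL13A and RPS27 made up the 11 parents with at least 5 members, while 11 parents had a single one.

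The members were close copies. Identity to the parent's main transcript had a median of 97.0% and ranged from 78.2% to 100%, and 61 members were at least 98% identical. To measure how far a read could be placed, each member's exons were split into all windows of 75 bases. The read length is not stated. The 75 bases are 1 read of a pair if the 150 cycles of the kit were shared equally, and trimmed reads may be shorter. A window was called unique when it occurred nowhere else on the primary chromosomes and in no transcript of the parent. The median share of unique windows was 80.2%. All windows were unique in 17 members and none were in 7 members, among them RPS28P7, RPL36AP37, RPL21P16 and RPL39P3, which were each 100% identical to the parent over the aligned length. The longest open reading frame, taken in any frame of the joined exons, was at least 95% of the parent's coding length in 59 members. In 57 members it was under 50% of that length. Whether it was the parent's own frame was not checked.

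The sequences below show what separates a read of a pseudogene from a read of its parent, for the 3 members that rose with RSL3 and the 3 with the highest counts. Each pair gives the first 90 bases of the parent's coding sequence that align without a gap, and capitals mark the bases that differ. The pseudogene stretches are on GRCh38 at chr11:61636680-61636769 for RPLP0P2, chr1:15792865-15792954 for RPL12P14, chr6:54624606-54624695 for RPSAP44, chr2:38481851-38481940 for RPLP0P6 and chr12:118246084-118246173 for RPS2P5, all on the plus strand, and at chr14:69886051-69886140 on the minus strand for RPL7AP6.
RPLP0, coding bases 1 to 90: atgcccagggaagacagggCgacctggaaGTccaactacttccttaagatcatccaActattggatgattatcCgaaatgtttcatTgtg
RPLP0P2: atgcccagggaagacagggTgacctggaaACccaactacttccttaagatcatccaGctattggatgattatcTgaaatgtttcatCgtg
RPL12, coding bases 74 to 163: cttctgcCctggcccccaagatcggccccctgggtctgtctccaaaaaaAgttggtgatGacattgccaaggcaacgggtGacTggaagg
RPL12P14: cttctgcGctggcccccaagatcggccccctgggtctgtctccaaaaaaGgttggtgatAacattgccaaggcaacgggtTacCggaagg
RPSA, coding bases 2 to 91: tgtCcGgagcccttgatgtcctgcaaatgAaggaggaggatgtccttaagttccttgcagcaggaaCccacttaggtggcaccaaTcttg
RPSAP44: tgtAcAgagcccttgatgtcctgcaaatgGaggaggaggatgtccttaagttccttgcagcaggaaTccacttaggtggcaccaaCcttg
RPLP0, against RPLP0P6: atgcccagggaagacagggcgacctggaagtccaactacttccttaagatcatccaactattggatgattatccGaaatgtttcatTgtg
RPLP0P6: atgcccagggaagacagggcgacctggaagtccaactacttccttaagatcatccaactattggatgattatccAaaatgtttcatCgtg
RPS2, coding bases 1 to 90: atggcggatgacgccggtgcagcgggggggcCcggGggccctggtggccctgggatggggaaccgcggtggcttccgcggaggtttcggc
RPS2P5: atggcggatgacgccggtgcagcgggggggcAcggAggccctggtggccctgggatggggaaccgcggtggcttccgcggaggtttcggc
RPL7A and RPL7AP6, coding bases 1 to 90: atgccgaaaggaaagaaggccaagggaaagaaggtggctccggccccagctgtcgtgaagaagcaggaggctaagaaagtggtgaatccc
RPLP0P2 differed from RPLP0 at 6 of the 90 bases (C20T, G30A, T31C, A57G, C74T and T87C, counted from the first base of the start codon, with the parent's base first). RPL12P14 and RPSAP44 each differed at 5 bases, RPLP0P6 and RPS2P5 at 2 bases, and RPL7AP6 at 0 bases of this stretch. Over the aligned length RPLP0P2 was 93.9%, RPL12P14 94.1% and RPSAP44 89.7% identical to the parent, against 98.5% for RPL7AP6, 98.7% for RPS2P5 and 98.8% for RPLP0P6.

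The members together took 0.128% to 0.153% of all counts in a library, and their 51 parents took 2.56% to 2.71%. Most members were weakly counted, with a median of 53.2 normalized counts, and the 6 highest held 40.9% of the members' reads. RPL7AP6 (processed, in the span of SMOC1 on the opposite strand) led with a mean of 6232 normalized counts. RPS2P5, in TAOK3 on the opposite strand, followed with 5657. RPLP0P6 had 2122, RPLP0P2 1844, RPS28P7 1671 and RPS18P5, in PCNP on the opposite strand, 1391 normalized counts. By group means, RPLP0P2 was the lowest of these 6 in the controls and the third with RSL3.

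Set against their parents per kilobase of exon, 144 of the 164 members were lower, with a median level of 4.64% of the parent's. The other 20 members were higher than the parent. Of these 20, 18 belonged to 6 parents that were themselves counted at fewer than 1000 normalized counts, namely RPS18 (mean of 37.8), RPL7A (55.7), RPL36A (81.2), RPL17 (312), RPS10 (327) and RPL21 (697). RPL7AP6 stood at 7781 normalized counts per kilobase, a level 31248% of that of RPL7A, and RPS18P5 was at 14688% of RPS18. Some of the low parents shared sequence with other loci. Exons of the readthrough genes RPL17-C18orf32, RPS10-NUDT3 and RPL36A-HNRNPH2 covered 96.9% of the RPL17, 84.0% of the RPS10 and 43.8% of the RPL36A main transcript, and a read that falls in exons of both genes is counted for neither by the counting tool in its standard mode. For RPS18, 100% of the 75-base exon windows were also present on alternate contigs of the assembly. For RPL7A and RPL21, the parents of 19 of these pseudogenes, both shares were 0%. The authors aligned to GRCh38.p4, and the patch sequences of that release were not searched. The 0% therefore does not show that these 2 parents have no second copy in the assembly used. Well counted parents could share sequence too, since 53.7% of the RPL10 main transcript was covered at 33625 normalized counts. Whether these features set the low counts was not tested, and the ratios of their 31 pseudogenes to the parent rest on few parent reads.

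**Figure D1:**
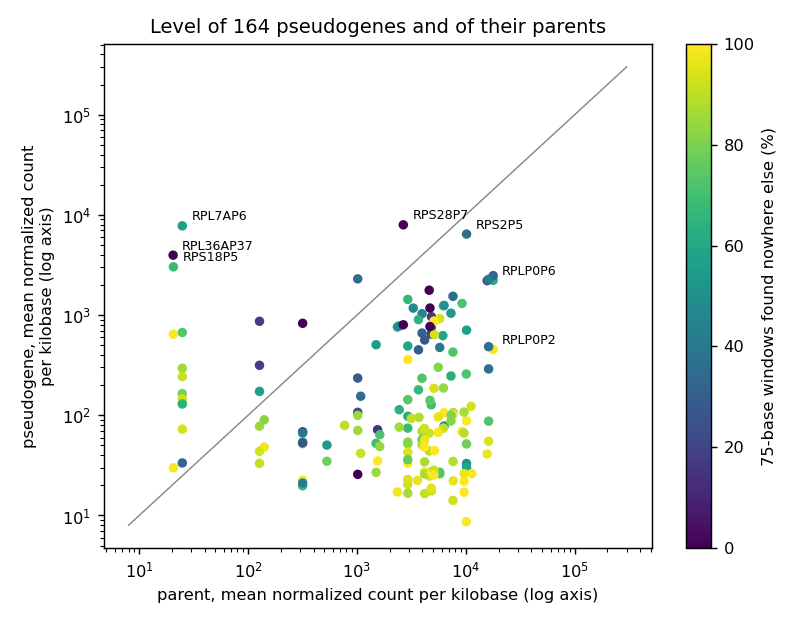
Mean normalized count per kilobase of exon over 6 libraries for each of 164 pseudogenes (vertical) and its parent (horizontal), both on log axes, with the line of equal level and colour for the share of unique 75-base windows. Most points lie below the line; the 20 above it include RPL7AP6, RPS18P5 and RPL36AP37, whose parents have fewer than 1000 normalized counts, and RPS28P7.

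One library stood apart in these genes. Control replicate 2, the library with the fewest reads, was the highest of the 6 libraries for 95 of the 164 members. Its summed member count was 52427 normalized counts, against 45016 and 44013 in the other controls and 43662 to 47217 in the RSL3 libraries. In 137 of the 164 members it was above the mean of the other 2 controls, with a median excess of 0.37 on the log2 scale. The 51 parents showed a median of -0.05 and 12644 protein-coding genes a median of 0.00 (-0.0047 unrounded), whereas 482 other processed pseudogenes showed 0.37. The excess went with identity to the parent. It had a median of 0.14 in the 45 members with identity up to 95%, 0.37 in the 58 members over 95% and up to 98%, and 0.46 in the 61 members over 98%. Among the 83 members with a mean raw count of at least 50, the medians were -0.02 (17 members), 0.28 (17 members) and 0.46 (49 members), and Spearman's rho between identity and excess was 0.48, against 0.27 over all 164 members, a description over genes that share libraries and parents. These classes were set after the counts were seen, and the cause of the excess was not tested. The changes called below are therefore also given without control replicate 2.

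**Figure D2:**
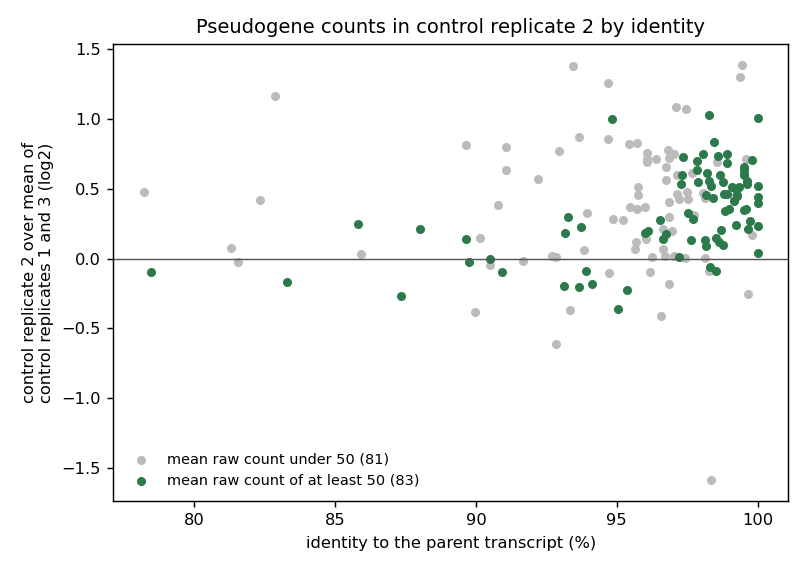
Log2 of the normalized count in control replicate 2 over the mean of control replicates 1 and 3, against identity to the parent transcript (%), for 164 pseudogenes. Among the 83 better counted members (green) those with identity over 98% lie mostly above 0, with a median of 0.46, and those up to 95% lie on both sides of 0, with a median of -0.02.

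With RSL3, 3 members rose and 8 fell among the 160 that passed the filter on low counts (edgeR quasi-likelihood test, Benjamini-Hochberg adjusted p under 0.05 over 16105 genes). This is a small share, since 25.6% of all genes tested were called, 12.9% as higher and 12.7% as lower, and 5.77% of 919 other pseudogenes. Among the 83 members with a mean raw count of at least 50, 3 rose and 6 fell. The 4 members not tested were RPL15P5, RPL7P47, RPL21P11 and RPL32P33, and RPL23AP24 passed the filter through its control libraries only, so that it had to differ. Leaving it out, 7 members fell. The members' log2 fold changes had a median of -0.13, against 0.00 for all genes (-0.0044 unrounded), and 115 of 160 were below 0. Without control replicate 2 the median was 0.02, 78 of 163 were below 0, and 4 members were called higher and 5 lower (11.3% and 11% of all genes). The 3 risers were called in both fits, as were 5 of the 8 that fell, or 4 of 7 without RPL23AP24. Control and RSL3 libraries did not overlap in 27 of the 164 members, against 38.6% of all genes tested.

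**Figure D3:**
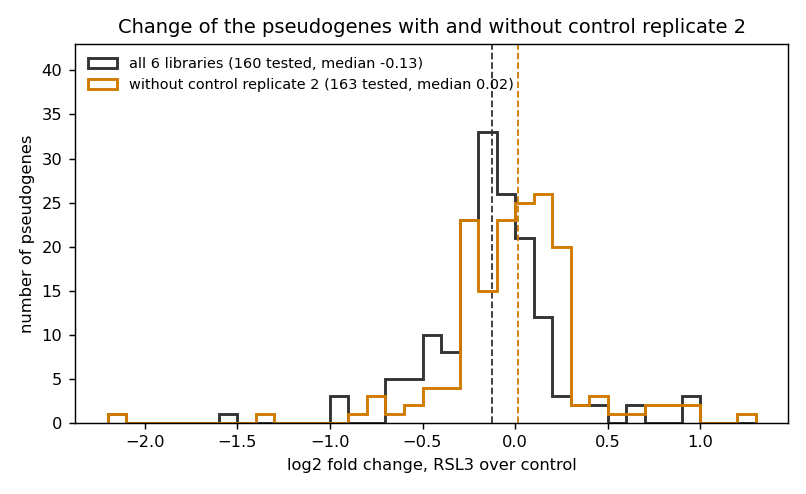
Number of pseudogenes per 0.1 of log2 fold change (RSL3 over control), from all 6 libraries and without control replicate 2, with dashed lines at the medians. The median moves from -0.13 with all libraries to 0.02 without that library, while the few members near 1 stay apart.

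RPLP0P2 had the largest log2 fold change of the 3 risers, only just ahead of RPL12P14. It derives from RPLP0, which encodes the P0 protein of the ribosomal stalk, and is annotated as a transcribed processed pseudogene of 7 exons and 4060 exon bases at chr11:61615036-61639449 on the plus strand (ENSG00000243742). Its normalized counts were 1270, 1211 and 1302 in the controls and 2461, 2563 and 2258 in the RSL3 libraries. Every RSL3 library was thus far above every control. The mean went from 1261 ± 46.0 (SD, n = 3) to 2427 ± 155 (SD, n = 3), a log2 fold change of 0.94 (SE 0.05, edgeR adjusted p = 2.3e-11). RPLP0 had 74809, 70507 and 69403 normalized counts in the controls and 72378, 70243 and 69812 with RSL3, a log2 fold change of -0.02 (adjusted p = 0.755), so its groups overlapped. The longest reading frame in the pseudogene's exons was 957 bases, beside a coding length of 954 bases in RPLP0. Over all 7 exons, 99.0% of its windows were unique. Its 4060 exon bases reach well beyond a copy of that coding length, and the counts do not say where in the gene the reads lie. Whether the rise came from the stretch copied from RPLP0 was therefore not tested. The nearest tested genes, looked up after the values were seen, were SYT7 at 33.9 kb (log2 fold change -0.43, adjusted p = 0.251) and DAGLA at 40.9 kb (0.19, adjusted p = 0.0492).

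RPL12P14 rose by about as much. It is a processed copy of RPL12, a large subunit protein at the base of the stalk, and lies at chr1:15792796-15793285 on the plus strand (ENSG00000224321). Its normalized counts were 326, 283 and 315 in the controls and 613, 641 and 530 with RSL3, again without overlap. The log2 fold change was 0.94 (SE 0.09, adjusted p = 1.06e-07), while RPL12 moved by 0.02 (adjusted p = 0.629). Unlike RPLP0P2 it had no long reading frame, its longest being 45 bases beside the parent's coding length of 498. Its windows were 94.0% unique. Its neighbours FBLIM1, 6.2 kb away, and UQCRHL, 13.9 kb away, had log2 fold changes of -0.04 and -0.10 (adjusted p = 0.668 and 0.699).

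RPSAP44, a processed copy of RPSA at chr6:54624605-54625488 on the plus strand (ENSG00000220773), rose less. Its normalized counts were 267, 267 and 274 in the controls and 387, 362 and 349 with RSL3. The groups did not overlap, and the normalized counts of the controls were close to each other. The log2 fold change was 0.44 (SE 0.09, adjusted p = 0.00121), beside 0.04 for RPSA (adjusted p = 0.391). All of its windows were unique. The nearest tested genes were far off, LRRC1 at 700.5 kb (log2 fold change -0.06, adjusted p = 0.714) and COL21A1 at 1431 kb, which rose by 0.75 (adjusted p = 2.69e-05). These 3 members were among the 45 with identity up to 95%, and the excess of control replicate 2 was -0.09, -0.18 and -0.02 (log2) in RPLP0P2, RPL12P14 and RPSAP44. Without that library the log2 fold changes were 0.92, 0.89 and 0.44, with adjusted p-values of 1.76e-10, 7.1e-07 and 0.00364.

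**Figure D4:**
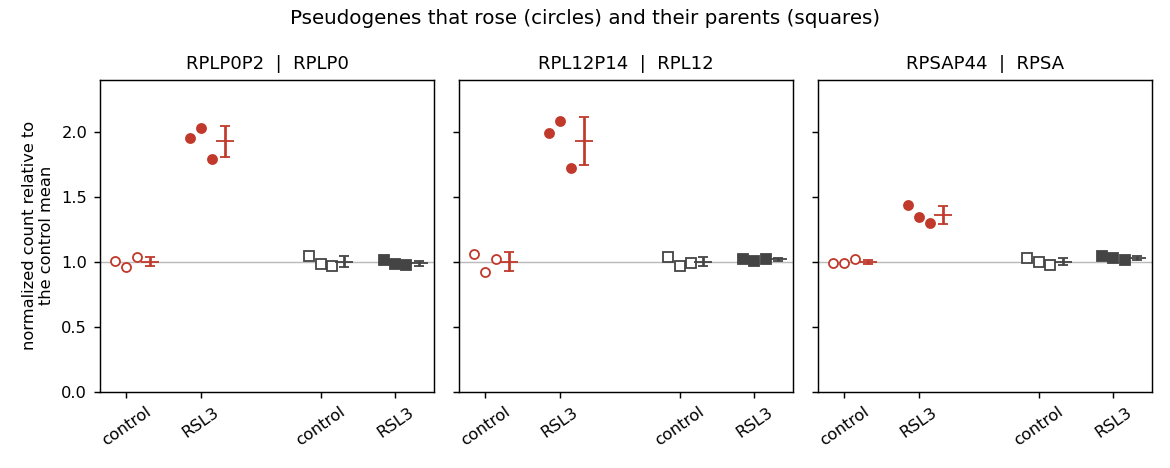
Normalized counts relative to the control mean for RPLP0P2, RPL12P14 and RPSAP44 (circles) and their parents RPLP0, RPL12 and RPSA (squares), 1 point per library, open for control and filled for RSL3, with bars for the mean ± SD (n = 3). The RSL3 points of the pseudogenes lie above all of their controls, while those of the parents overlap with theirs.

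Of the members that fell, RPL23AP82, a transcribed unprocessed pseudogene of the large subunit gene RPL23A at chr22:50798655-50799123, had the smallest standard error. Its normalized counts were 1164, 1160 and 1165 in the controls and 1008, 948 and 1024 with RSL3 (log2 fold change -0.23, SE 0.05, adjusted p = 0.00247). The value without control replicate 2 was also -0.23 (adjusted p = 0.00741), and RPL23A changed by 0.00 (-0.002 unrounded, adjusted p = 0.983). Of the windows of RPL23AP82, 34.9% were unique and 65.1% occurred elsewhere in the genome. RPL7AP50, a copy of RPL7A at chr10:63902451-63903245, had 160, 137 and 160 normalized counts in the controls and 98.9, 99.7 and 132 with RSL3 (log2 fold change -0.47, adjusted p = 0.0314). Without control replicate 2 its log2 fold change was -0.53 (adjusted p = 0.024). Its highest RSL3 library was close to its lowest control, and 79.9% of its windows were unique.

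The calls of RPLP0P6 and RPL7P1 were close to the threshold and were lost without control replicate 2. RPLP0P6, the other well counted copy of RPLP0, had 2078, 2639 and 2079 normalized counts in the controls and 2038, 2008 and 1889 with RSL3, a log2 fold change of -0.19 (adjusted p = 0.0394) that became -0.07 (adjusted p = 0.336) without that library. RPL7P1, a copy of the large subunit gene RPL7 with a full reading frame of 747 bases, had 539, 719 and 583 against 537, 522 and 471. Its log2 fold change of -0.26 (adjusted p = 0.0477) became -0.13 (adjusted p = 0.303) without control replicate 2. Both calls were also lost when any RSL3 library was left out (edgeR adjusted p = 0.0532 to 0.135 for RPLP0P6 and 0.0548 to 0.173 for RPL7P1). The share of unique windows was 62.2% in RPLP0P6 and 31.4% in RPL7P1.

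The remaining 4 that fell are named after their values were seen, since their counts were low or their groups overlapped. RPSAP15, at chrX:87703343-87704203, had 493, 497 and 411 normalized counts against 400, 431 and 307 (log2 fold change -0.30, adjusted p = 0.0479), and was not called without control replicate 2 (adjusted p = 0.14). RPS28P4 was irregular, with 126, 293 and 249 normalized counts against 163, 91.4 and 85.9 (log2 fold change -0.96, adjusted p = 0.00581). Without control replicate 2 this was -0.72 (adjusted p = 0.0389), and only 0.7% of its windows were unique. RPL23P2 had 25.9, 39.4 and 26.8 against 11.5, 12.5 and 6.0 normalized counts (log2 fold change -1.60, adjusted p = 0.00447), and a log2 fold change of -1.40 (adjusted p = 0.0255) without control replicate 2. RPL23AP24 went from 20, 13 and 18 raw reads to 7, 1 and 2, and none of its windows were unique.

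The parents moved little. Of the 51 parents, 1 rose and 2 fell, beside 12.9% and 12.7% of all genes tested. Their log2 fold changes had a median of 0.02 and a range of -0.23 to 0.11. Without control replicate 2, 0 rose by this test and 3 fell, beside 11.3% and 11% of all genes. The added one was RPL41 (log2 fold change -0.14, adjusted p = 0.0216, against -0.11 and 0.0543 with all libraries). In that fit 9 parents had an unadjusted p under 0.05, beside 5415 of 16574 genes. With all libraries, 3 of the 79 cytosolic ribosomal protein genes rose and 2 fell. RPL6 fell by 0.11 on the log2 scale (adjusted p = 0.00983), RPS26 fell by 0.23 (adjusted p = 0.0134), and RPS27A, the gene of a ubiquitin and ribosomal protein fusion, rose by 0.11 (adjusted p = 0.0174). The others that rose were RPS21 by 0.11 and RPL8 by 0.08 (adjusted p = 0.0245 and 0.0363). RPL6, RPS26 and RPL8 were also called without control replicate 2, and RPS21 and RPS27A were not (adjusted p = 0.117 and 0.0939). The 8 members that derive from RPL6, RPS26 and RPS27A were not called in either direction.

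**Figure D5:**
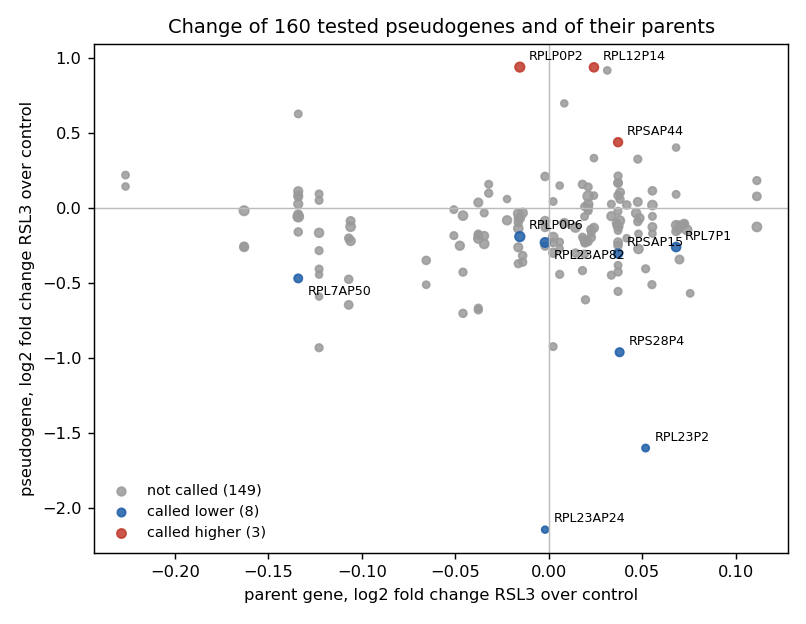
Log2 fold change (RSL3 over control) of each of 160 tested pseudogenes (vertical) against that of its parent (horizontal), with point size rising with the mean count. The parents span -0.23 to 0.11, and the 3 pseudogenes called higher and 8 called lower are named.

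To ask whether a pseudogene changed apart from its parent, the log2 ratio of each pseudogene to its parent was compared between the groups (limma with voom weights, adjusted over 667 pairs of all gene families). Of 160 member pairs, 2 were called higher and 0 lower, beside 0.45% and 0% of all pairs. The 0.45% is 3 pairs and includes these 2. The ratio of RPLP0P2 to RPLP0 was -5.88, -5.86 and -5.74 in the controls and -4.88, -4.78 and -4.95 with RSL3 on the log2 scale. It rose by 0.96 (SE 0.06, adjusted p = 7.64e-09). The ratio of RPL12P14 to RPL12 rose by 0.91 (SE 0.10, adjusted p = 3.24e-05). Without control replicate 2 the ratios rose by 0.94 and 0.88 (adjusted p = 1.97e-14 and 1.44e-07). That of RPSAP44 to RPSA was higher by 0.40 (SE 0.10, adjusted p = 0.11) and was called without control replicate 2 (adjusted p = 0.0459). For RPL23AP82 the ratio to RPL23A differed by -0.22 (adjusted p = 0.32) and for RPLP0P6 by -0.15 (adjusted p = 0.778). Over the member pairs the median change was -0.09, and over all pairs -0.06. Pairs of one family share their parent's counts and are not independent.

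Within a family the log2 fold changes spread from member to member, but differences between members were not tested. Some ends of the ranges given here were members that were not called. Among the 14 members of RPSA, RPSAP44 rose and RPSAP15 fell, and the log2 fold changes ran from -0.55 to 0.44. The 10 members of RPL7A ran from -0.47 to 0.63, with 1 called lower, and the most abundant, RPL7AP6, was at 6590, 6093 and 6364 normalized counts in the controls and 6344, 5861 and 6144 with RSL3 (log2 fold change -0.06, adjusted p = 0.297). The 6 members of RPS3A were all between -0.37 and -0.04, with none called, and 9 members of RPL21 gave 8 tests and no call. RPS2P5 had 5551, 5749 and 5198 normalized counts in the controls and 5928, 5921 and 5596 with RSL3 (log2 fold change 0.08, adjusted p = 0.124). It was the fourth member called higher without control replicate 2 (0.12, adjusted p = 0.0432). RPS28P7 and RPS18P5 were not called, with log2 fold changes of -0.08 and -0.02, and of -0.07 and 0.05 without control replicate 2.

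Many members lay inside other genes. A surrounding gene was taken only where it shared no exon base with the member. The span of such a counted gene held 72 members. For 56 of them that gene was itself tested, on the same strand in 17 and on the opposite strand in 39. In 15 of these 56 cases the surrounding gene was called, 8 as higher and 7 as lower, beside 25.6% of all genes tested. Of the 15 pseudogenes within them 0 were called, beside 11 of all 160 tested members. With so few calls among the members, the 0 does not show whether pseudogenes follow the surrounding gene, which was not tested. TXNRD1, which encodes thioredoxin reductase, rose by 0.55 (log2, adjusted p = 1.41e-10), while RPL18AP3 in its span on the same strand was at -0.27 (adjusted p = 0.17). THSD4 rose by 0.63 (adjusted p = 3.07e-09), while RPL17P39 inside it was at -0.18 (adjusted p = 0.585). SMOC1, around RPL7AP6, fell by 0.13 (adjusted p = 0.0366). Of the 8 members that fell, 5 lay in the span of another counted gene. RPS28P4 lay in ARMC9 (log2 fold change -0.07, adjusted p = 0.14), RPL7P1 in CSF1R (-0.27, adjusted p = 0.312) and RPLP0P6 in LINC02613 (-0.04, adjusted p = 0.96). RPL23AP24 lay in ENSG00000228463, whose value was -0.66 (adjusted p = 0.0508), and the gene around RPL7AP50 was not tested. The 3 risers lay in no other counted gene. In 14 members some exon bases were also exon of another counted gene, up to 100% for RPS11P5, and none of the 14 was called.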

How the data were processed

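Per the labels and the study's methods, the authors trimmed reads (Trimmomatic 0.36), ran HISAT2 against GRCh38.p4, assigned reads to exons without strand (HTSeq 0.6.1p1) and deposited raw counts per gene for each of 6 libraries. The annotation release is not given in the sources used here. Symbols, types and positions came from GENCODE 44 (GRCh38), which matched 56434 of 65988 identifiers. Members and lists were chosen with earlier results of these data known. Counts were scaled by TMM, filtered with filterByExpr (minimum count of 10) and tested with edgeR 4.0.16 in R 4.3.3. Normalized counts are scaled to the mean library. Ratios of 667 pairs were tested with limma 3.58.1. Sequences were aligned locally with Biopython 1.88. Named members were the 6 of highest count, those called without overlap at 50 normalized counts or more, called pairs, and 4 within introns of tested genes, with parents. Alternatives used DESeq2 1.42.0 and sva 3.50.0. The tests were tried on simulated data. Precision is limited by 3 libraries a group.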

Additional observations from a re-analysis of the deposited data

How the results depend on the processing

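The number of pseudogenes called lower changed with the processing. The 8 became 13 with no filter on low counts, 14 with the replicate block, 3 when changes under 0.5 on the log2 scale were set aside, and 2, 3 and 1 with DESeq2 and 0, 1 or 2 surrogate variables, where 140, 140 and 126 members had an adjusted p. Leaving out 1 library gave 4 to 13, with 5 without control replicate 2, 13 without control replicate 3, 4 without RSL3 replicate 1 and 5 without RSL3 replicate 2. The number called higher stayed at 2 to 4 in all alternatives run. It was 2 at the fold limit of 0.5, which RPSAP44 (log2 fold change 0.44) did not reach. Single members were followed through up to 13 alternatives, which did not include the fold limit or the other filters on low counts. In these, RPLP0P2, RPL12P14 and RPSAP44 kept their direction and their call in 13 of 13 each. RPL23P2 lost its call in 0 of 12 alternatives that gave a value and RPL23AP24 in 1 of 10. Since RPL23AP24 passed the main filter through its control libraries only, its calls and its lower ratio given below are no support for a fall. RPL23AP82 lost its call in 1 of 13, RPS28P4 in 3 (the DESeq2 fits), RPLP0P6 in 5, RPL7AP50 and RPSAP15 in 7 each and RPL7P1 in 8. The median log2 fold change of the members was -0.181 to 0.0167 when 1 library was left out, and above 0 only without control replicate 2. Of the 79 ribosomal protein genes, 3 were called higher, against 6 with no filter, 7 and 5 with DESeq2 and 0 or 1 surrogate variables, 12 with the replicate block, 0 at this fold limit and 0 to 14 when 1 library was left out. The 2 called lower became 1 with 2 surrogate variables, 4 with the block, 0 at the fold limit and 1 to 3 with 1 library left out. Member pairs called higher were 2 to 3 and called lower 0 to 2 when 1 library was left out: RPL7P1 and RPS28P4 without control replicate 1 and RPL23AP24 without control replicate 2 had lower ratios. The causes were not tested. Same-numbered control and RSL3 libraries correlated at 0.022, 0.027 and 0.0745 in their deviations from the group means. Differently numbered ones correlated at -0.0514 to 0.0242, and for each control the same-numbered RSL3 library had the highest value. These values are small and do not settle whether the numbers pair the samples. Depth limits the members with few reads, since the median member had 52.9 reads a library.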
